A study of Mus musculus with 30 samples.

Results

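The genes described here encode the enzymes of cholesterol synthesis and of fatty acid synthesis, together with the sterol-sensing proteins that regulate both. They were taken from a list of 32 genes, with 18 in sterol synthesis, 6 in regulation and sterol transport and 8 in fatty acid synthesis. A listed gene was a member where the array annotation gave it a probe set that carried its symbol alone, which held for 27 of the 32 among the 30142 genes tested. These were 15 of the 18 sterol enzymes, 5 of the 6 regulators and 7 of the 8 fatty acid genes, on 28 probe sets. Tm7sf2, Msmo1, Srebf1 and Scd2 share their probe set with another symbol and were not assessed, and Acat2 was not analysed here.

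RNA was measured in the uterus of female mice 21 days old, before puberty, on 30 whole-transcript arrays in 10 groups of 3. The mice were knockout (KO, Ex3aERKO, named for a deletion in exon 3 of Esr1, the gene of estrogen receptor alpha) or wild type (WT). In each genotype, estradiol (E2, 250 ng in 100 ul saline) was injected once and tissue was taken at 2 h or 24 h. Insulin-like growth factor 1 (IGF1) was given at 50 ug in PBS, injected once with tissue taken at 2 h, or 3 times with tissue taken 24 h after the first injection. Vehicle mice of each genotype received 100 ul saline once, with tissue taken at 24 h. A vehicle group at 2 h was not analysed here, so a difference from vehicle at 2 h also holds the time after injection, and the IGF1 comparisons also hold the solvent and, at 24 h, the number of injections. The strain is not stated in the labels, nor is it stated that the 3 replicates are separate animals, so p-values measure the spread between these samples, which may be technical.

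Values are log2 signals as deposited, and each difference is a log2 difference between group means ± its standard error (SE). A gene was called higher or lower where limma's adjusted p was below 0.05, and "rose" and "fell" are used of such genes alone. Esr1 lay at 9.38 to 10.41 on the 15 KO arrays and at 11.44 to 12.73 on the 15 WT arrays, with no overlap. It is not known here whether that probe set lies in the deleted exon, so this is a limited check of the genotype. A floor was set for each array from 1225 olfactory receptor genes (5.69 to 6.57), and 21 of the 27 members lay above it on every array. KO E2 24 h replicate 2 (floor 6.57) and WT vehicle replicate 1 (6.50) stood apart from the other arrays, with the highest floors. In WT vehicle replicate 1 Xist, which is expressed in female cells, was at 10.16, against 17.01 to 18.12 on the other 29 arrays, although all mice are labelled female. Every epithelial, stromal, muscle, endothelial and macrophage marker lay above the floor on every array, as did 5 of the 8 adipocyte markers. Of the other adipocyte markers, Plin1 was above it on 28 arrays, Lep on 13 and Cidea on 2 of 30. In contrast, of 6 ovarian and steroidogenic markers Cyp11a1, Amh, Fshr and Hsd3b1 were at or under it on every array. The other members of that list were mostly above it, Star on 28 and Inha on 25 of 30 arrays.

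Cholesterol synthesis runs from acetyl-CoA through mevalonate, isoprenoid units, squalene and lanosterol to cholesterol, and its enzymes are controlled together by sterol regulatory element-binding proteins (SREBPs). When membrane sterol is low, SCAP carries the SREBPs from the endoplasmic reticulum to the Golgi, where they are cut to release active transcription factors. When sterol is high, INSIG proteins hold the complex back. SREBP-2, the product of Srebf2, is known mainly for the sterol enzymes and SREBP-1c, a product of Srebf1, mainly for the fatty acid enzymes. In the rodent uterus estradiol drives growth of the epithelium through estrogen receptor alpha, and IGF1 is a growth factor of the same tissue.

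Promoter windows of 250 bases upstream of an annotated start were read from RefSeq (GRCm38.p6) for 22 of the 27 members. Such a start can lie inside the span of the gene. Fdft1, Fdps, Scd1, Sqle and Stard4 had none in that table. The windows of 6 members are shown because these genes stand for the steps described next: an early enzyme, the isomerase, the lanosterol demethylase, the transcription factor, its retention protein and fatty acid synthase. Capitals mark matches to the classical sterol element TCACNCCAC and to the Y box CCAAT on either strand.
Hmgcs1, chr13:119690101-119690350, plus strand: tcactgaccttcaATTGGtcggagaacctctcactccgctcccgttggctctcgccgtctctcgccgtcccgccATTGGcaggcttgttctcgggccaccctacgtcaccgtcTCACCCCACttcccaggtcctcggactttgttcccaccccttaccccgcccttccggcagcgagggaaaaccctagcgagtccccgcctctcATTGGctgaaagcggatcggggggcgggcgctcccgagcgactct
Idi1, chr13:8885356-8885605, plus strand: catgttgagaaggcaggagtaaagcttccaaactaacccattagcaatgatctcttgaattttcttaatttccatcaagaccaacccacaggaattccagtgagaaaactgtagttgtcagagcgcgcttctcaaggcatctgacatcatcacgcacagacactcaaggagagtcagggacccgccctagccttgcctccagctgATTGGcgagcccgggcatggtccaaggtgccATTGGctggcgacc
Cyp51, chr5:4104698-4104947, minus strand: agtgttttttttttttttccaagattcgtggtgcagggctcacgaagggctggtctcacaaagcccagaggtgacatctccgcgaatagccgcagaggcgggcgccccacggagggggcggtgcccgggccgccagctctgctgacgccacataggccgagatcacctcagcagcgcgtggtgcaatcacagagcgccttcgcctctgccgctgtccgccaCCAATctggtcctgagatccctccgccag
Srebf2, chr15:82147019-82147268, plus strand: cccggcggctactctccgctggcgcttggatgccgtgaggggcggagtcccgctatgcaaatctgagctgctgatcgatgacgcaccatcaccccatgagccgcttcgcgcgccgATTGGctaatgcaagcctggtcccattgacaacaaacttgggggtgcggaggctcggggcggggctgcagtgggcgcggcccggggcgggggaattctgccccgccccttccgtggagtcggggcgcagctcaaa
Insig1, chr5:28071162-28071411, plus strand: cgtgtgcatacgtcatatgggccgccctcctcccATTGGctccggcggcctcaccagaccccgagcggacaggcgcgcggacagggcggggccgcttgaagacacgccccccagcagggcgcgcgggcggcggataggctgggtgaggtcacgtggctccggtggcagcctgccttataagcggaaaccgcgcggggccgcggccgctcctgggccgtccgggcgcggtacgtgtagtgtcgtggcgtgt
Fasn, chr11:120824548-120824797, minus strand: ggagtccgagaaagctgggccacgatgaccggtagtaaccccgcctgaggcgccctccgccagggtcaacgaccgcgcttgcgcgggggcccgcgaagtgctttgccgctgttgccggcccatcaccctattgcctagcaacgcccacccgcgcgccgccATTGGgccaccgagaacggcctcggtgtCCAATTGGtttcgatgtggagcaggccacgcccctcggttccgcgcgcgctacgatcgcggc
The sterol element was found in 1 of 22 members, Hmgcs1, where it lay 137 to 129 bases before the start, against 1.22% of 27025 genes. The Y box CCAAT, which binds NF-Y, a factor known to act with SREBPs, was found in 18 of 22 members (81.8%), against 37.5% of all genes. In the window of Fasn the matches CCAAT and ATTGG overlap. This window lies inside the span of Fasn (120805958 to 120825166), so it describes an internal start and not the 5' end of the gene. The Y boxes counted for Dhcr7 and Me1 were also in windows inside the spans of those genes. The GC box GGGCGG, bound by Sp1, was also found in 18 of 22, against 35.4% of all genes, and the E box CACGTG in 5 of 22 (22.7%), against 6.86%. These 5 were Dhcr7, Hsd17b7, Insig1, Sc5d and Scap. The full estrogen response element, GGTCA and TGACC 3 bases apart, was found in 0 of 22, against 0.0666% of all genes. A match describes these letters, searched on both strands and counted in any window of a gene with several starts, and a window without one says nothing of the factor.

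In vehicle-treated uteri 1 of the 27 members differed between genotypes. Pmvk, phosphomevalonate kinase, was at 7.71, 8.16 and 8.28 in KO vehicle, against 7.40, 7.01 and 7.47 in WT vehicle. The groups did not overlap, and Pmvk was higher in KO by 0.76 ± 0.20 (1.69-fold, adjusted p = 0.0361). All KO arrays were above all WT arrays for 6.86% of all genes. It was the 1 member called, against 2.92% of all genes called and 1.61% called higher, and the median over members was 0.10, against -0.01 over all genes. With the replicate number as a block shared by all 30 arrays, the call was lost (0.76, adjusted p = 0.0508). Same-numbered replicates deviated together in these 2 groups, but in no other of the 15 pairs of groups. It was also lost without any 1 of KO vehicle replicates 2 and 3 and WT vehicle replicates 1, 2 and 3 (adjusted p = 0.0538 to 0.161). Without WT vehicle replicate 2 Nsdhl was called instead (1.06, adjusted p = 0.0439). Nsdhl, a sterol dehydrogenase, differed by 0.83 ± 0.26 (adjusted p = 0.0996) and Stard4, a carrier of sterol between membranes, by 0.71 ± 0.22 (adjusted p = 0.106). Uterine epithelial markers moved with genotype, 4 of 10 being higher in KO vehicle, and their part in these values was not tested.

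Estradiol for 24 h raised the whole measured sterol pathway in WT uteri. All 15 sterol enzymes rose, with a median difference of 2.07, and 21 of the 27 members rose in all. Of all genes tested, 30.1% were called, with 16.8% of all genes higher and 13.3% lower, and the median difference over all genes was -0.10. The 21 were the 15 sterol enzymes, 4 of the 5 regulators and 2 of the 7 fatty acid genes, and none fell. In whole tissue, fewer cells of a type and less RNA per cell cannot be told apart, and markers of several cell types moved in this comparison. The mean of the 10 epithelial markers was 11.79 to 11.88 in WT E2 24 h and 9.07 to 9.52 in WT vehicle, with 9 of 10 called higher. The mean of the 5 stromal markers was 13.16 to 13.32 in WT E2 24 h and 11.94 to 12.21 in WT vehicle, with 3 called higher (Col1a1 10.1-fold) and Dcn lower. The mean of the 5 muscle markers was 15.32 to 15.51 in WT E2 24 h and 13.41 to 14.46 in WT vehicle, with 2 called higher (Actg2 7.20-fold). None of these 3 means overlapped between the groups, and no endothelial or macrophage marker was called. The part of the markers in the results was not tested.

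Among the early, mevalonate steps, Hmgcs1, HMG-CoA synthase, was at 13.02, 13.06 and 13.27 in WT E2 24 h, against 9.22, 9.17 and 9.08 in WT vehicle. Both groups were tight and far apart, a rise of 3.96 ± 0.44 (15.5-fold, adjusted p = 3.42e-07). Mvk, Pmvk and Mvd, which turn mevalonate into isopentenyl pyrophosphate, rose less, by 1.70 ± 0.16, 1.33 ± 0.20 and 1.72 ± 0.15.

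Idi1, isopentenyl pyrophosphate isomerase, was at 10.24, 10.41 and 10.88 in WT E2 24 h, against 6.73, 6.27 and 6.17 in WT vehicle, a rise of 4.12 ± 0.43 (17.4-fold, adjusted p = 1.42e-07). Fdps, farnesyl pyrophosphate synthase, had the largest difference of all 27 members. It was at 12.10, 12.29 and 12.44 in WT E2 24 h, against 7.34, 6.90 and 7.05 in WT vehicle, a rise of 5.18 ± 0.36 (36.2-fold, adjusted p = 3.32e-10). The 3 treated arrays lay within 0.34 of each other, and the lowest of them was above every other array of the series for this gene.

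From squalene onwards the rises were largest for Sqle and Cyp51. Sqle, squalene epoxidase, was at 11.28, 11.36 and 11.70 in WT E2 24 h, against 7.68, 7.32 and 7.62 in WT vehicle (a rise of 3.91 ± 0.40). Cyp51, lanosterol demethylase, was at 11.16, 11.38 and 11.37 in WT E2 24 h, against 7.23, 7.58 and 7.61 in WT vehicle (3.83 ± 0.38, 14.2-fold). Neither gene's groups overlapped. All WT E2 24 h arrays were above all WT vehicle arrays for 25 of the 27 members and for 21% of all genes. Nsdhl rose by 3.09 ± 0.26, Sc5d by 2.07 ± 0.31 and Fdft1, squalene synthase, by 2.01 ± 0.20. Hsd17b7, a sterol ketoreductase that also acts on estrone, was at or under the floor on all 3 vehicle arrays, so its rise was at least 3.92-fold. Dhcr7, which makes cholesterol from its last precursor, was at 7.98, 8.53 and 8.28 in WT E2 24 h, against 6.77, 6.80 and 6.93 in WT vehicle, a rise of 1.43 ± 0.17. Lss and Ebp rose by 1.61 ± 0.16 and 1.55 ± 0.16, so that the smallest rise of a sterol enzyme was that of Pmvk.

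Among the regulators, Srebf2 was at 10.88, 11.18 and 11.21 in WT E2 24 h, against 8.04, 8.57 and 8.61 in WT vehicle, a rise of 2.68 ± 0.30 (6.42-fold, adjusted p = 2.67e-07). Insig1 was at 12.02, 11.93 and 12.09 in WT E2 24 h, against 9.48, 10.09 and 9.90 in WT vehicle, a rise of 2.19 ± 0.49 (adjusted p = 0.00144). Insig2, its paralog with the same retention role, did not follow. It was at 8.41, 8.65 and 8.27 in WT E2 24 h, against 8.03, 8.72 and 9.02 in WT vehicle, and the groups overlapped (-0.14 ± 0.19, adjusted p = 0.584). Without the 2 arrays that stand apart it was called lower (-0.43, adjusted p = 0.0459). Scap was at 9.28, 9.29 and 9.37 in WT E2 24 h, against 8.42, 8.30 and 8.52 in WT vehicle, the smallest rise among the 21 (0.90 ± 0.16). Stard4 was at 9.82, 10.19 and 10.22 in WT E2 24 h, against 8.20, 7.99 and 7.78 in WT vehicle, a rise of 2.09 ± 0.22.

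**Figure D1:**
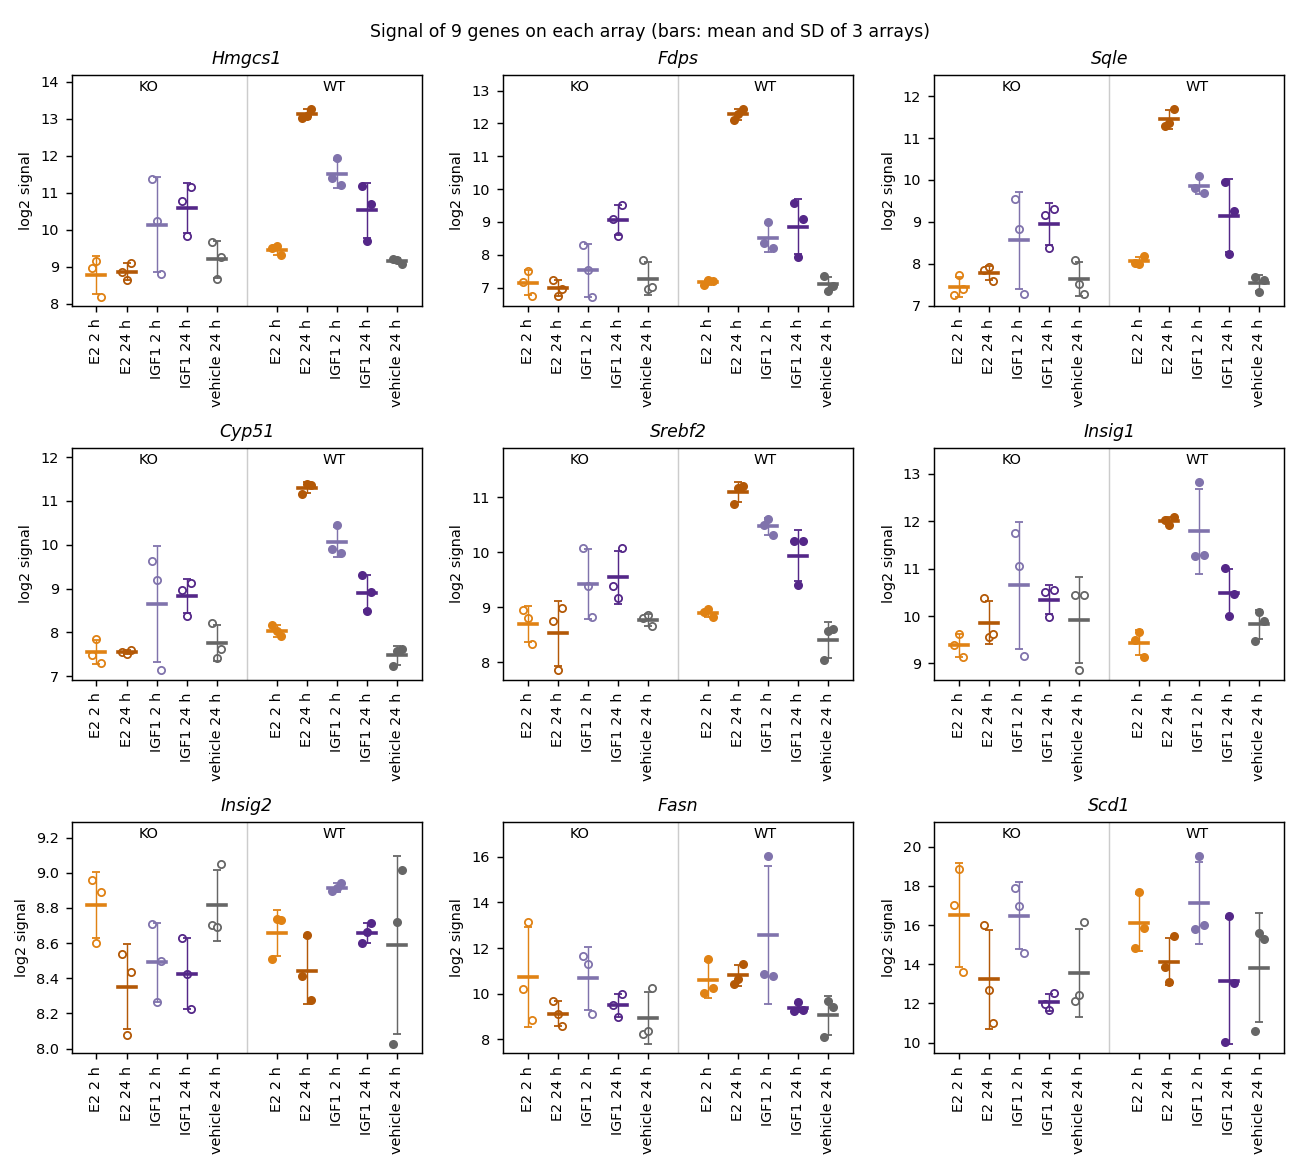
Log2 signal (vertical axis) of 9 genes on each array, with KO groups on the left (open circles) and WT groups on the right (filled circles) of each panel; the wide bar is the mean and the whisker the SD of 3 arrays. The WT E2 24 h arrays of Hmgcs1, Fdps, Sqle, Cyp51 and Srebf2 lie above all other arrays of those panels, Insig2 stays between 8.03 and 9.05, and 1 WT IGF1 2 h array of Fasn lies at 16.05.

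The fatty acid genes were less uniform. Acly, which makes cytosolic acetyl-CoA from citrate, was at 9.53, 9.90 and 10.04 in WT E2 24 h, against 8.01, 8.32 and 8.05 in WT vehicle, a rise of 1.69 ± 0.62 (3.23-fold, adjusted p = 0.0408). Elovl6, a fatty acid elongase, was at 9.67, 9.48 and 10.07 in WT E2 24 h, against 7.67, 8.25 and 7.82 in WT vehicle, a rise of 1.83 ± 0.51 (3.55-fold, adjusted p = 0.00885). These were the 2 of 7 that passed the test. Without any 1 of the 6 arrays of this comparison Acly lost its call (adjusted p = 0.0565 to 0.110), while Elovl6 kept it (adjusted p = 0.0127 to 0.0412).

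For the other 5 the values were these. Me1, malic enzyme, which supplies NADPH, was at 10.64, 10.46 and 10.80 in WT E2 24 h, against 8.18, 8.99 and 8.53 in WT vehicle, and the groups did not overlap (2.07 ± 0.99, adjusted p = 0.120). Fasn, fatty acid synthase, was at 10.43, 10.66 and 11.31 in WT E2 24 h, against 8.08, 9.68 and 9.41 in WT vehicle, again without overlap (1.74 ± 1.04, adjusted p = 0.215). Such a lack of overlap, with all E2 arrays higher, held for 21% of all genes. Acaca, acetyl-CoA carboxylase, was at 9.39, 9.63 and 9.91 in WT E2 24 h, against 8.21, 9.04 and 8.94 in WT vehicle (0.91 ± 0.72, adjusted p = 0.355). Acss2, which activates acetate, was at 6.90, 7.02 and 7.07 in WT E2 24 h, against 6.41, 6.78 and 6.66 in WT vehicle (adjusted p = 0.463). Scd1, the stearoyl-CoA desaturase, was at 13.84, 13.08 and 15.43 in WT E2 24 h, against 10.62, 15.60 and 15.27 in WT vehicle, and the groups overlapped (adjusted p = 0.913).

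The spread of these genes between arrays of the same group was larger than that of the sterol enzymes. The SD within groups, pooled over the 10 groups, had a median of 0.96 over the 7 fatty acid genes (0.49 to 2.18) and of 0.34 over the 15 sterol enzymes (0.17 to 0.58). Adipocyte markers also varied between arrays, and the mean of the 8 markers ran from 6.59 to 10.80 over the 30 arrays. The means of adipocyte markers and of fatty acid genes were both highest on WT IGF1 2 h replicate 2, as the plot of both means shows. In WT E2 24 h the adipocyte mean was low (6.70 to 7.56, against 7.00 to 7.62 in WT vehicle), and none of the 8 markers was called. The adipocyte mean of each array was also used as a covariate, a setting chosen after seeing the data. In that fit 5 of the 7 fatty acid genes rose with E2 at 24 h in WT. They were Fasn (2.22, adjusted p = 0.00474), Me1 (2.53, adjusted p = 0.000495) and Acaca (1.24, adjusted p = 0.0238) in addition to Acly and Elovl6. The share of all genes called in that fit is not given here. All 15 sterol enzymes rose in that fit as well.

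**Figure D2:**
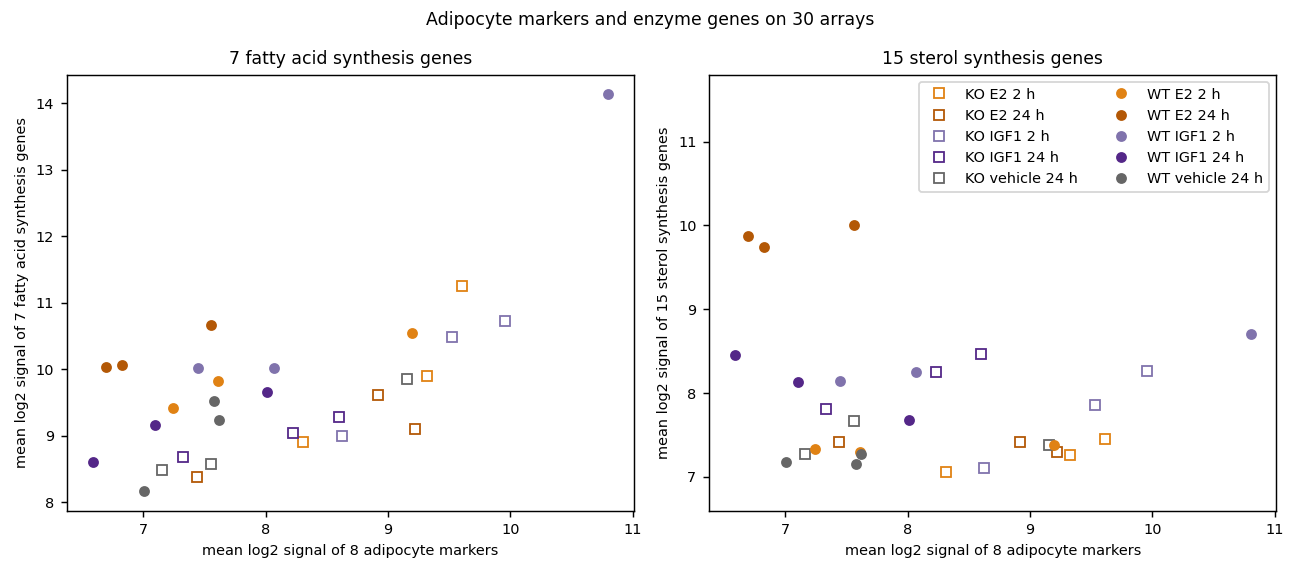
Mean log2 signal of the 7 fatty acid synthesis genes (left) and of the 15 sterol synthesis genes (right) against the mean log2 signal of 8 adipocyte markers, 1 point for each of 30 arrays, KO open squares and WT filled circles, coloured by treatment. On the left 1 WT IGF1 2 h array stands alone at an adipocyte mean of 10.80 and a fatty acid gene mean of 14.13; on the right the 3 WT E2 24 h arrays are highest, with adipocyte means of 6.70 to 7.56.

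In KO uteri no member changed with estradiol at 24 h. The count was 0 of 27, and limma called 0 of all 30142 genes in that comparison (0.00%), with 1 member lower and 0 higher at an unadjusted p below 0.05. The member was Insig2, at 8.54, 8.08 and 8.43 in KO E2 24 h, against 8.70, 8.69 and 9.05 in KO vehicle (-0.46 ± 0.19, adjusted p = 0.330). Differences of the 15 sterol enzymes lay between -0.33 and 0.31. For comparison with the WT values above, Fdps was at 7.24, 6.75 and 6.95 in KO E2 24 h, against 7.85, 6.95 and 7.02 in KO vehicle. Hmgcs1 was at 8.85, 8.65 and 9.10 in KO E2 24 h, against 9.66, 8.68 and 9.26 in KO vehicle, and Sqle at 7.86, 7.91 and 7.59, against 8.09, 7.53 and 7.29. Each of these pairs of groups overlapped. Srebf2 was at 8.74, 7.86 and 8.98 in KO E2 24 h, against 8.81, 8.86 and 8.65 in KO vehicle, the low value being that of the array that stands apart.

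The test of the difference itself, the KO change minus the WT change, was negative and called for 19 of 27 members at 24 h of estradiol. Of all genes 22.1% were called, with 12.2% of all genes lower in this sense. The 19 were all 15 sterol enzymes with Srebf2, Insig1, Scap and Stard4. For Hsd17b7 all arrays of KO E2 24 h, KO vehicle and WT vehicle were at or under the floor, so its KO change was not measured. The difference of changes was -5.47 ± 0.51 for Fdps (adjusted p = 1.49e-07), -4.32 ± 0.61 for Idi1, -4.29 ± 0.63 for Hmgcs1, -4.03 ± 0.54 for Cyp51 and -3.76 ± 0.56 for Sqle. At the other end it was -0.82 ± 0.22 for Scap (adjusted p = 0.0109) and -1.35 ± 0.24 for Dhcr7. None of the 7 fatty acid genes was called, with -1.83 ± 0.87 for Acly (adjusted p = 0.128) and -1.74 ± 0.72 for Elovl6 (adjusted p = 0.0852). With the adipocyte mean as a covariate, chosen after seeing the data, 5 of the 7 were called lower, among them Me1 (-2.91, adjusted p = 0.0063) and Fasn (-2.76, adjusted p = 0.0191). The share of all genes called in that fit is not given here. Of the markers, 7 of 10 epithelial, 2 of 5 stromal and 2 of 5 muscle genes were called lower in this difference, and their part in it was not tested. Without the 2 arrays that stand apart all 15 sterol enzymes remained called with Srebf2 and Stard4, while Insig1 (-1.93, adjusted p = 0.122) and Scap (-0.64, adjusted p = 0.0598) did not. Insig1 also lost its call without any 1 of KO E2 24 h replicate 2, KO vehicle replicates 1 and 3 and WT vehicle replicate 1 (adjusted p = 0.0509 to 0.0677).

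**Figure D3:**
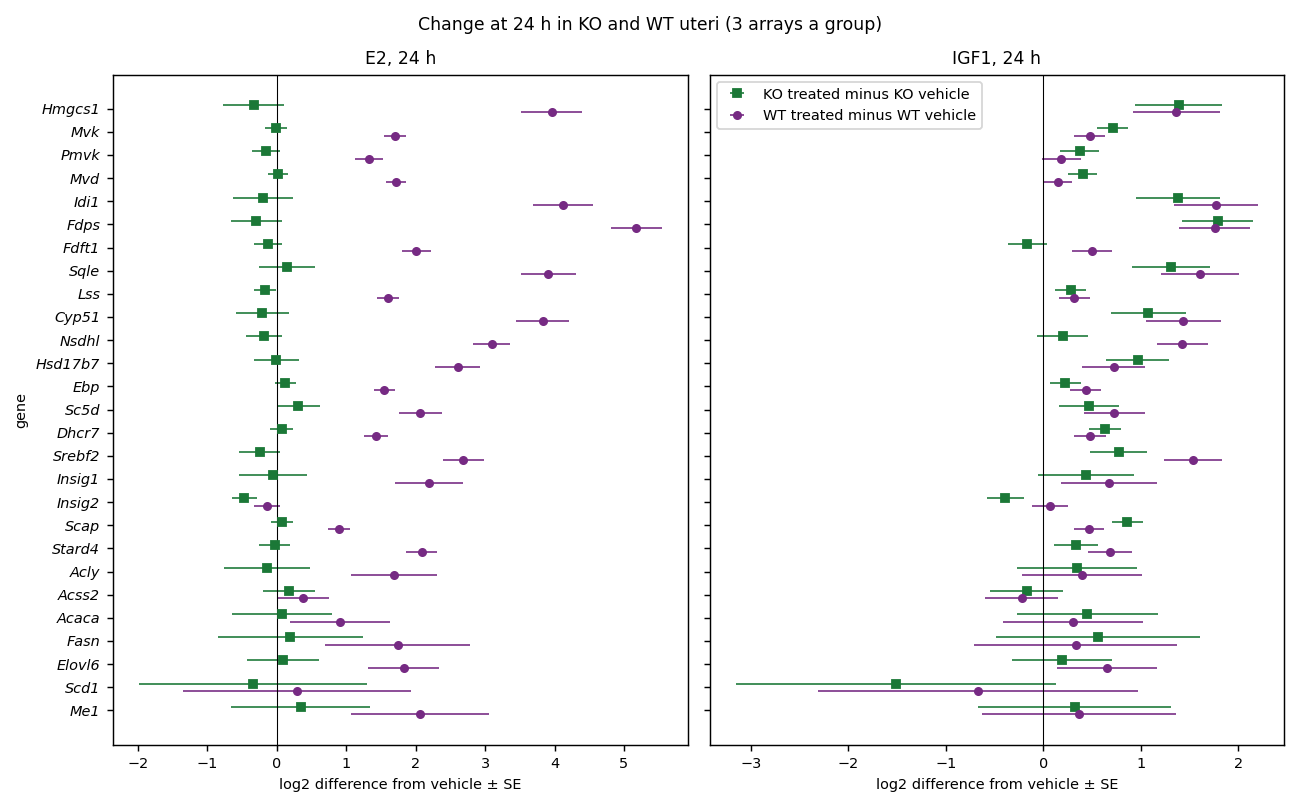
Log2 difference from vehicle of the same genotype (horizontal axis, ± SE, 3 arrays a group) for the 27 genes at 24 h of E2 (left) and of IGF1 (right), KO squares and WT circles. With E2 the KO values lie between -0.46 and 0.34 and the WT sterol enzymes between 1.33 and 5.18. With IGF1 the 2 genotypes lie closer, for example 1.79 in KO and 1.76 in WT for Fdps.

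At 2 h of estradiol 1 of the 15 sterol enzymes passed the test in WT uteri. Fdft1 was at 8.82, 8.65 and 8.94 in WT E2 2 h, against 7.65, 8.21 and 8.19 in WT vehicle, a rise of 0.79 ± 0.20 (1.73-fold, adjusted p = 0.00678). It was the 1 member called, against 19.0% of all genes called and 9.84% called higher, and without WT vehicle replicate 1 it was not called. Of the stromal and endothelial markers, Col1a1, Col3a1, Hoxa11 and Tek were called lower in WT E2 2 h, and their part was not tested. In KO uteri Fdft1 was at 7.93, 7.85 and 7.63 in KO E2 2 h, against 8.71, 8.06 and 8.32 in KO vehicle (-0.56 ± 0.20, adjusted p = 0.254). The KO change minus the WT change was -1.35 ± 0.29 (adjusted p = 0.00374) and was the 1 member called in that difference, against 8.00% of all genes called and 4.39% called lower. Col1a1, Col3a1, Vim, Hoxa11 and Tek were called higher in that difference. The epithelial mean was 10.50 to 11.13 in KO E2 2 h and 10.18 to 10.54 in KO vehicle. The part of these markers in the difference was not tested. With limma the KO comparison itself called 0 members, against 0.365% of all genes, with 1 higher (Scap) and 2 lower (Fdft1 and Stard4) at an unadjusted p below 0.05.

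The largest differences from vehicle at 2 h were those of fatty acid genes that scattered widely, and none was called. Scd1 was at 14.84, 17.70 and 15.84 in WT E2 2 h, against 10.62, 15.60 and 15.27 in WT vehicle, and at 17.00, 18.85 and 13.62 in KO E2 2 h, against 12.13, 12.42 and 16.14 in KO vehicle. Within each genotype these groups overlapped. Adipocyte means were 8.31 to 9.61 in KO E2 2 h and 7.24 to 9.19 in WT E2 2 h. With the adipocyte mean as a covariate no fatty acid gene was called at 2 h of E2 either, and Scd1 differed by 0.80 in KO (adjusted p = 0.835) and by 1.13 in WT (adjusted p = 0.535).

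Sterol and fatty acid genes were higher in WT uteri 2 h after IGF1 than in vehicle taken at 24 h. For the fatty acid genes the calls depended on single arrays, as described below. Of 27 members 17 rose and none fell, against 17.2% of all genes called and 9.54% called higher, with a median of 1.42 over members and -0.08 over all genes. The 17 were 10 of the 15 sterol enzymes, Srebf2 and Insig1 among the 5 regulators, and 5 of the 7 fatty acid genes. The epithelial mean was at least 9.72 on each WT IGF1 2 h array, against 9.07 to 9.52 in WT vehicle, with 4 of 10 markers called higher. Des of muscle (6.79-fold), Col1a1 of stroma (1.87-fold) and Kdr of endothelium (1.42-fold) were also called higher. The part of these markers was not tested.

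Cyp51 was at 9.91, 10.45 and 9.82 in WT IGF1 2 h, against 7.23, 7.58 and 7.61 in WT vehicle, the largest rise of a sterol enzyme at 2 h (2.59 ± 0.38, adjusted p = 5.24e-05). Hmgcs1 was at 11.39, 11.93 and 11.21 in WT IGF1 2 h, against 9.22, 9.17 and 9.08 in WT vehicle (2.35 ± 0.44, 5.10-fold), and Sqle at 9.81, 10.09 and 9.70, against 7.68, 7.32 and 7.62 (2.33 ± 0.40, 5.02-fold). In all 3 genes every treated array was above every vehicle array. Idi1 rose by 2.19 ± 0.43, and Hsd17b7 rose at least 3.08-fold, its vehicle arrays again being at or under the floor. Srebf2 was at 10.50, 10.61 and 10.31 in WT IGF1 2 h, against 8.04, 8.57 and 8.61 in WT vehicle (2.07 ± 0.30, adjusted p = 3.97e-05). Insig1 was at 11.26, 12.82 and 11.28 in WT IGF1 2 h, against 9.48, 10.09 and 9.90 in WT vehicle (1.96 ± 0.49, adjusted p = 0.00614). Mvk, Pmvk, Mvd, Ebp and Dhcr7 were the 5 sterol enzymes not called, with differences of -0.01 to 0.39.

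Replicate 2 of WT IGF1 2 h stood far above its group for the fatty acid genes. Fasn was at 10.86, 16.05 and 10.79 in WT IGF1 2 h, against 8.08, 9.68 and 9.41 in WT vehicle (3.51 ± 1.04, 11.4-fold, adjusted p = 0.0206). Acaca was at 9.93, 14.08 and 10.08 in WT IGF1 2 h, against 8.21, 9.04 and 8.94 in WT vehicle (2.63 ± 0.72, adjusted p = 0.0120), and Me1 at 9.54, 15.72 and 9.56, against 8.18, 8.99 and 8.53 (3.04 ± 0.99, adjusted p = 0.0357). Acly was at 8.85, 12.84 and 8.74, against 8.01, 8.32 and 8.05, and Elovl6 at 8.47, 11.68 and 8.44, against 7.67, 8.25 and 7.82. The other 2 treated arrays were also above all 3 vehicle arrays for these 5 genes. All treated arrays were above all vehicle arrays for 20 of the 27 members and for 15.7% of all genes. Scd1 was at 15.80, 19.53 and 16.00 in WT IGF1 2 h, against 10.62, 15.60 and 15.27 in WT vehicle, and Acss2 at 6.68, 9.05 and 6.54, against 6.41, 6.78 and 6.66, and neither was called. The adipocyte mean of replicate 2 was 10.80, the highest of the 30 arrays, against 7.45 and 8.07 on the other arrays of its group. Without that array 7 members rose, 6 sterol enzymes and 1 regulator (Srebf2), and none of the fatty acid genes, with Fasn at 1.77 (adjusted p = 0.207). Without WT vehicle replicate 1, the sterol enzymes called were 8 and the fatty acid genes 0, and without WT vehicle replicate 2 or 3 the fatty acid genes called were 4 and 2. With the adipocyte mean as a covariate, 8 sterol enzymes, 2 regulators and 1 fatty acid gene, Acaca, rose (1.44, adjusted p = 0.0293).

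**Figure D4:**
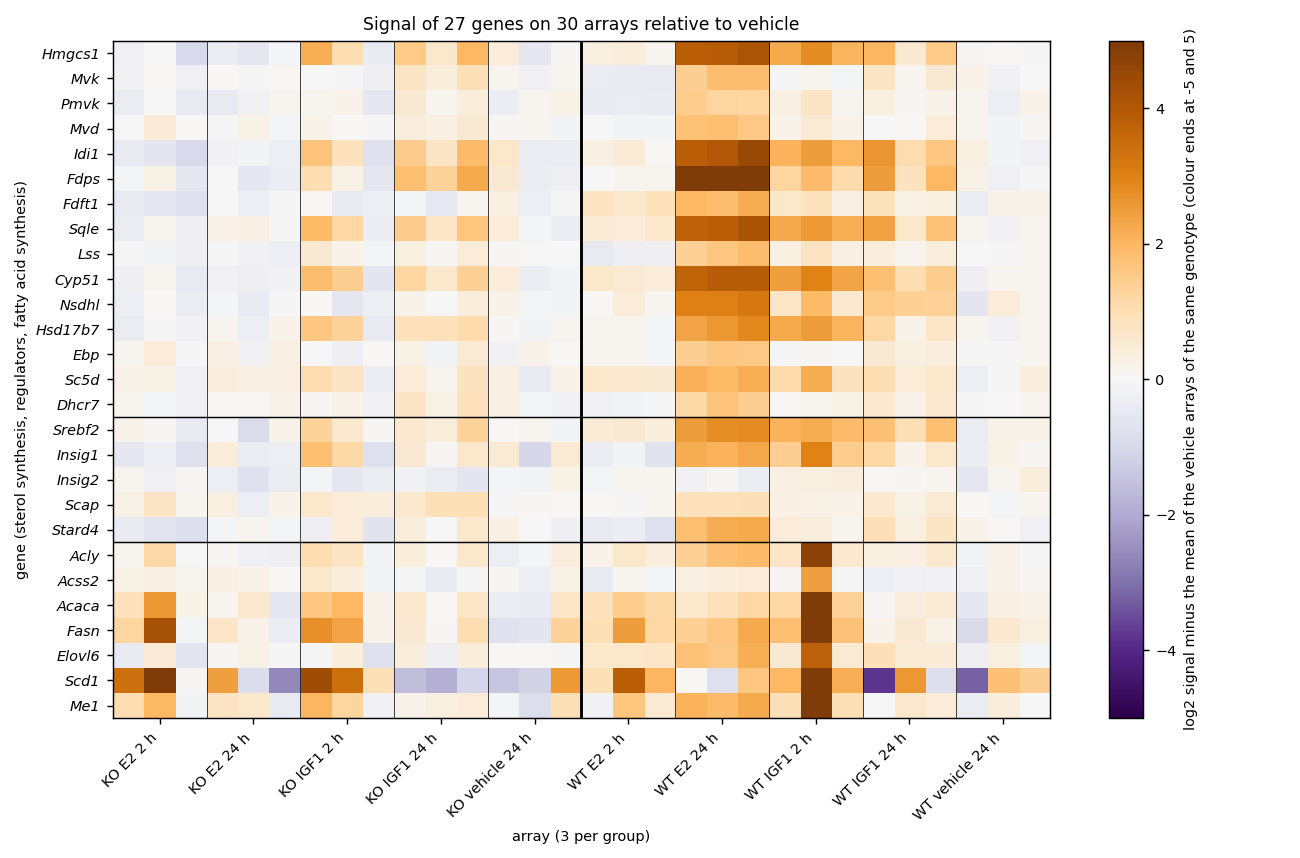
Log2 signal of each of the 27 genes (rows, in the order sterol synthesis, regulators, fatty acid synthesis) on each of 30 arrays (columns, KO groups left of WT groups), minus the mean of the vehicle arrays of the same genotype; orange is above and purple below, and the colour ends at -5 and 5. The block of WT E2 24 h is orange over all sterol rows, WT IGF1 2 h replicate 2 is dark over the fatty acid rows, and KO IGF1 2 h replicate 3 is pale beside the other arrays of its group.

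In KO uteri IGF1 at 2 h gave no called member, against 7.13% of all genes, with 6 higher at an unadjusted p below 0.05, and the 3 arrays differed. Hmgcs1 was at 11.36, 10.24 and 8.81 in KO IGF1 2 h, against 9.66, 8.68 and 9.26 in KO vehicle (0.94 ± 0.44, adjusted p = 0.236). Cyp51 was at 9.62, 9.19 and 7.14 in KO IGF1 2 h, against 8.21, 7.42 and 7.61 in KO vehicle (0.90 ± 0.38, adjusted p = 0.174), and Insig1 at 11.74, 11.05 and 9.16, against 10.44, 8.86 and 10.44. Replicates 1 and 2 were above every vehicle array for these 3 genes and replicate 3 was within or below them. Replicate 3 was also nearer to vehicle over 964 other genes called higher in WT IGF1 2 h by a log2 difference of at least 1, with a median difference from KO vehicle of 0.33, against 1.28 and 0.97 in replicates 1 and 2. Without the 2 arrays that stand apart Scap was called (0.50, adjusted p = 0.0267). Without replicate 3, 9 members rose: Hmgcs1, Idi1, Sqle, Cyp51, Hsd17b7, Sc5d, Srebf2, Insig1 and Scap. The share of all genes called in that fit is not given here, so this count stands without it. In that fit Cyp51 rose by 1.66 (adjusted p = 7.57e-05). The KO change minus the WT change called no member, against 0.0133% of all genes, with 11 members lower at an unadjusted p below 0.05. For Cyp51 it was -1.69 ± 0.54 (95% confidence interval -2.80 to -0.57, adjusted p = 0.579), so a difference between the genotypes was not shown at 2 h, nor was its absence.

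At 24 h of IGF1 sterol enzymes rose in both genotypes. In KO uteri 8 of 27 members rose and none fell, against 13.6% of all genes called and 9.28% called higher. In WT uteri 6 rose and none fell, against 4.28% called and 3.32% called higher. Fdps, Idi1 and Sqle were called in both genotypes. Hmgcs1, Mvk, Hsd17b7, Dhcr7 and Scap were called in KO alone and Cyp51, Nsdhl and Srebf2 in WT alone. Markers moved in both genotypes. The stromal mean was 12.23 to 12.55 in KO IGF1 24 h and 11.22 to 11.84 in KO vehicle, with Col1a1, Col3a1, Vim and Hoxa11 called higher and Dcn lower. In WT it was 12.74 to 13.00 in IGF1 24 h and 11.94 to 12.21 in vehicle, with Col1a1 and Col3a1 called higher. Of the muscle markers Actg2 was called higher in KO, and Actg2 and Des in WT. The epithelial mean was 10.45 to 11.42 in KO IGF1 24 h and 10.18 to 10.54 in KO vehicle, with 3 of 10 markers called higher, and 9.80 to 10.02 in WT IGF1 24 h and 9.07 to 9.52 in WT vehicle, with 1 of 10. In KO, Cdh5 of endothelium and Cd68 of macrophages were also called higher. The part of these markers was not tested.

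Fdps was at 9.10, 8.58 and 9.50 in KO IGF1 24 h, against 7.85, 6.95 and 7.02 in KO vehicle (1.79 ± 0.36, 3.46-fold, adjusted p = 0.00166). In WT it was at 9.57, 7.93 and 9.07 in IGF1 24 h, against 7.34, 6.90 and 7.05 in vehicle (1.76 ± 0.36, 3.38-fold, adjusted p = 0.00762). The groups did not overlap in either genotype. All treated arrays were above all vehicle arrays for 17% of all genes in KO and 11.7% in WT. The KO change minus the WT change for Fdps was 0.03 ± 0.51 (95% confidence interval -1.03 to 1.09). Idi1 was at 8.33, 7.58 and 8.73 in KO IGF1 24 h, against 7.52, 6.47 and 6.52 in KO vehicle (1.38 ± 0.43), and at 9.02, 7.47 and 8.00 in WT IGF1 24 h, against 6.73, 6.27 and 6.17 in WT vehicle (1.77 ± 0.43). Sqle rose by 1.31 ± 0.40 in KO and by 1.61 ± 0.40 in WT. Scap was at 8.71, 9.07 and 9.11 in KO IGF1 24 h, against 8.03, 8.14 and 8.13 in KO vehicle (0.86 ± 0.16, adjusted p = 0.000732), while in WT the difference was 0.47 ± 0.16 (adjusted p = 0.10). Nsdhl was at 8.61, 8.38 and 8.79 in KO IGF1 24 h, against 8.61, 8.31 and 8.27 in KO vehicle, and at 9.11, 8.95 and 8.89 in WT IGF1 24 h, against 6.97, 8.01 and 7.71 in WT vehicle (1.42 ± 0.26, adjusted p = 0.00373).

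No member was called in the KO change minus the WT change at 24 h of IGF1, against 0.00664% of all genes, and 2 were lower at an unadjusted p below 0.05. These were Nsdhl (-1.22 ± 0.37, adjusted p = 0.553) and Fdft1 (-0.66 ± 0.29, adjusted p = 0.723). For Hmgcs1 the value was 0.02 ± 0.63 (95% confidence interval -1.27 to 1.32). The 7 fatty acid genes gave no call in either genotype, with medians of 0.32 in KO and 0.33 in WT. Without WT IGF1 24 h replicate 2, which was lowest of its group for Fdps, Idi1 and Sqle, 10 members rose in WT. Without WT IGF1 24 h replicate 1 or 3, 2 and 3 rose, and without WT vehicle replicate 2, 3. In KO, leaving out KO vehicle replicate 2 or 3, or KO IGF1 24 h replicate 1 or 3, left 3 called each time, Mvk, Fdps and Scap.

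Estradiol and IGF1 were also compared directly, which avoids the vehicle groups. At 2 h in WT, 12 of 27 members were lower with E2 than with IGF1 and none was higher, against 5.57% of all genes called and 2.77% called lower. They were 9 sterol enzymes with Srebf2, Insig1 and Stard4. Insig1 was at 9.50, 9.67 and 9.14 in WT E2 2 h, against 11.26, 12.82 and 11.28 in WT IGF1 2 h (-2.35 ± 0.49, 5.09-fold lower, adjusted p = 0.00293). Cyp51 was also lower (-2.03 ± 0.38), and Hsd17b7, at or under the floor with E2, was at least 3.63-fold lower. At 24 h in WT the order was the opposite, 18 members being higher with E2 than with IGF1 and none lower, against 10.1% of all genes called and 7.59% called higher. They were all 15 sterol enzymes with Srebf2, Insig1 and Stard4, led by Fdps (3.42 ± 0.36, 10.7-fold, adjusted p = 6.51e-07) and Hmgcs1 (2.59 ± 0.44, 6.04-fold). Of the markers, 3 of 5 stromal genes and Des of muscle were lower with E2 at 2 h. The epithelial markers were mixed at 2 h. All E2 arrays were above all IGF1 arrays for Elf3, as for 12.9% of all genes. They were below them for Krt8, Krt19 and Cldn3, as for 15.1% of all genes. At 24 h, 6 of 10 epithelial genes and Col1a1 of stroma were higher with E2, and the part of these markers was not tested. Insig1 lost its call without any 1 of the 3 WT E2 24 h arrays or WT IGF1 24 h replicate 2 or 3, with 16 or 17 members called in those fits.

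In KO uteri the 24 h comparison ran the other way. Of 27 members 11 were lower with E2 than with IGF1 and none higher, against 21.5% of all genes called and 11.3% called lower. Fdps was at 7.24, 6.75 and 6.95 in KO E2 24 h, against 9.10, 8.58 and 9.50 in KO IGF1 24 h (-2.08 ± 0.36, adjusted p = 0.000378). Hmgcs1 was at 8.85, 8.65 and 9.10 in KO E2 24 h, against 10.76, 9.83 and 11.17 in KO IGF1 24 h (-1.72 ± 0.44, adjusted p = 0.00845). No array of either gene crossed between the groups, and all E2 arrays were below all IGF1 arrays for 16.9% of all genes. Of the markers, 3 of 10 epithelial, 4 of 5 stromal and 3 of 5 muscle genes were also lower with E2, and 1 stromal gene, Dcn, was higher. The other 9 were Mvk, Idi1, Sqle, Lss, Cyp51, Hsd17b7, Dhcr7, Srebf2 and Scap. The count was 6 without KO E2 24 h replicate 2, 6 without KO IGF1 24 h replicate 1 and 3 without KO IGF1 24 h replicate 3. At 2 h in KO no member was called, against 3.04% of all genes, with 9 lower at an unadjusted p below 0.05, and 9 were called lower without KO IGF1 2 h replicate 3.

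Times were compared within WT for each treatment, and the difference between the treatments in this was not tested. With E2, 19 members were higher at 24 h than at 2 h and none lower, against 27.4% of all genes called and 17.0% called higher. They were all 15 sterol enzymes with Srebf2, Insig1, Scap and Stard4, for example Fdps at 12.10, 12.29 and 12.44 at 24 h, against 7.08, 7.22 and 7.19 at 2 h (5.11 ± 0.36). All 10 epithelial and 4 of 5 stromal markers were also higher at 24 h, as were Actg2 of muscle (5.74-fold) and Tek of endothelium (1.72-fold). With IGF1, 1 member was higher at 24 h than at 2 h and 4 were lower, against 14.5% of all genes called, 7.94% higher and 6.57% lower. Hsd17b7 was at 6.68, 5.70 and 6.22 in WT IGF1 24 h, against 7.74, 7.95 and 7.55 in WT IGF1 2 h (-1.54 ± 0.32, adjusted p = 0.00176), and Cyp51 was also lower (-1.15 ± 0.38). Acaca and Fasn were also lower, and both calls were lost without WT IGF1 2 h replicate 2 (-0.97, adjusted p = 0.304, and -1.44, adjusted p = 0.383) or any 1 of the WT IGF1 24 h arrays. Mvk was higher by 0.49 ± 0.16. Hsd17b7 kept its call without any 1 of the 6 arrays. The count of 5 ran from 1 to 6 when single arrays were left out.

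Other genes of the same pathways were read from 4 further lists. Of 8 measured genes for sterol efflux, storage and oxysterols, 4 fell and 1 rose in WT E2 24 h, a comparison in which 13.3% of all genes were called lower and 16.8% higher. Abca1, which exports cholesterol and is a target of the liver X receptors, averaged 8.44 in WT E2 24 h and 11.12 in WT vehicle (-2.68 ± 0.36, 6.40-fold, adjusted p = 3.48e-06). Mylip, which marks lipoprotein receptors for degradation, fell by 1.18, Abcg1, a second exporter, by 0.74, and Nr1h3, a liver X receptor, by 0.46, while Osbp, an oxysterol-binding protein, rose by 0.40. Abca1 and Mylip also fell at 2 h in WT, by 1.41 and 2.02 with E2 and by 1.92 and 1.11 with IGF1. In KO neither changed with E2 at 24 h, and with IGF1 at 24 h Abca1 fell by 1.24 and Mylip by 1.26. The KO change minus the WT change for Abca1 was 2.04 ± 0.50 at 2 h and 2.48 ± 0.50 at 24 h of E2, both called.

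Of 5 measured genes of the isoprenoid branch, Fnta and Fntb, the subunits of farnesyltransferase, rose in WT E2 24 h by 0.78 ± 0.23 and 0.65 ± 0.14, and none fell, against the same 16.8% of all genes called higher and 13.3% lower. Of 14 other fatty acid and glycerolipid genes, 6 rose and 1 fell in that comparison, with the same shares over all genes. Elovl1 and Elovl5, elongases, rose by 2.17 ± 0.28 and 1.68 ± 0.28, Fads1 and Fads2, desaturases of polyunsaturated fatty acids, by 1.62 ± 0.24 and 1.79 ± 0.28, and Acsl4 and Aacs by 1.40 ± 0.18 and 0.82 ± 0.21. Dgat1, which makes triglyceride, fell by 0.80. With IGF1 at 24 h, Elovl1, Elovl5 and Fads2 rose in both genotypes, Fads2 by 1.99 ± 0.28 in KO and by 1.44 ± 0.28 in WT. Of 10 genes of fatty acid oxidation, 5 rose and 1 fell in WT E2 24 h, against 30.1% of all genes called in either direction. Among them Hadha, a subunit of the mitochondrial trifunctional protein, rose by 1.44 ± 0.26 and Ppargc1a, a coactivator of mitochondrial genes, fell (-1.14 ± 0.18). Median differences in that comparison were -0.60 for the efflux list, 0.32 for the isoprenoid list, 0.96 for the other fatty acid list and 0.94 for oxidation, against -0.10 for all genes.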

How the data were processed

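The authors deposited 1 log2 signal per probe set and array, for 72688 probe sets on 30 arrays. Per the labels' protocols, 300 ng of total RNA was amplified, labelled and hybridised to 1 array per sample. The software used to normalize them is not given in the sources used here. Array medians ran from 6.17 to 6.47, so the values are comparable in level, and the number of arrays limits the precision.

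A probe set was used where the platform annotation gave it 1 gene (30604 probe sets). Where a gene had several (355 genes), the one with the highest mean was used and their mean was an alternative. This left 30142 genes. Group means of all 30 arrays were fitted with limma 3.58.1 (R 4.3.3, lmFit and eBayes), and p-values were adjusted by Benjamini-Hochberg over all genes within each of 19 comparisons. The floor is the 95th percentile of 1225 olfactory receptor genes on each array. An "at least" fold uses, for each group, the higher of the mean floor of its arrays and the gene's group mean. The steps were tested on simulated data.

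The members and lists were chosen with earlier results of these data known. Genes named are all members, with values per sample for at least 1 member per role and for the largest and smallest changes, and genes of 4 further pathway lists. Same-numbered replicates deviated together (each correlation above 0.1) in 1 of 15 pairs of groups, KO and WT vehicle (0.43, 0.15 and 0.30). Alternatives were centring, quantile normalization, probe set means, removal of dim genes, array weights, another variance prior, the replicate block, fewer groups or arrays, and, chosen after seeing the data, the adipocyte marker mean as a covariate. Where no count over all genes is given for an alternative, its count of members stands without that share.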

Additional observations from a re-analysis of the deposited data

Results flagged for a closer look

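For 20 member values the KO change minus the WT change passed limma's test of that difference. At 2 h of E2 this was Fdft1 (-1.35). At 24 h of E2 the early enzymes were Hmgcs1 (-4.29), Mvk (-1.71), Pmvk (-1.48), Mvd (-1.70), Idi1 (-4.32) and Fdps (-5.47). From squalene synthase onwards they were Fdft1 (-2.13), Sqle (-3.76), Lss (-1.77), Cyp51 (-4.03), Nsdhl (-3.27), Hsd17b7 (-2.61), Ebp (-1.42), Sc5d (-1.75) and Dhcr7 (-1.35). The regulators were Srebf2 (-2.93), Insig1 (-2.25), Scap (-0.82) and Stard4 (-2.12). For Hsd17b7 all arrays of KO E2 24 h, KO vehicle and WT vehicle were at or under the floor, so its KO change was not measured and its value is neither exact nor a bound. The groups hold 3 arrays each, so single arrays that stand out within a group were not tested.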

How the results depend on the processing

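No member value changed from called in one direction to called in the other under any setting tried. Of 3726 member values with 1 array left out, 3544 kept their side of the threshold, 142 lost a call and 40 gained one. The counts of members called that moved by over 1.5 times were as follows. With array weights they were 4 for WT E2 2 h (main 1), 11 for WT IGF1 24 h (6), 1 for KO IGF1 2 h (0), 2 for KO minus WT vehicle (1), 2 for KO E2 minus IGF1 at 2 h (0) and 8 for WT IGF1 24 h minus 2 h (5). With only the groups compared they were 3 for WT E2 2 h, 8 for WT IGF1 2 h (17), 0 for WT IGF1 24 h, 0 for KO minus WT vehicle and 3 for WT IGF1 24 h minus 2 h. Without the 2 arrays that stand apart they were 0 for WT E2 2 h, 10 for WT IGF1 2 h, 1 for KO IGF1 2 h, 0 for KO minus WT vehicle and 6 for KO E2 minus IGF1 at 24 h (11). With the adipocyte covariate they were 11 for WT IGF1 2 h, 0 for KO minus WT vehicle and 2 for WT IGF1 24 h minus 2 h. Quantile normalization gave 2 and the replicate block gave 0 for KO minus WT vehicle, and removing dim genes gave 1 for KO IGF1 2 h. The block moved no other count of members called by over 1.5 times. The cause of these moves was not tested beyond the arrays and groups each setting leaves out.

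With single arrays left out, counts ran from 20 to 20 for WT E2 24 h, 0 to 1 for WT E2 2 h, 7 to 18 for WT IGF1 2 h, 2 to 10 for WT IGF1 24 h, 0 to 0 for KO E2 2 h and KO E2 24 h, 0 to 9 for KO IGF1 2 h, 3 to 8 for KO IGF1 24 h and 0 to 1 for KO minus WT vehicle. For E2 minus IGF1 they ran from 0 to 9 in KO at 2 h, 3 to 11 in KO at 24 h, 8 to 14 in WT at 2 h and 16 to 18 in WT at 24 h. In time within WT they ran from 19 to 19 with E2 and 1 to 6 with IGF1. For the KO change minus the WT change they ran from 18 to 19 for E2 24 h, 1 to 1 for E2 2 h and 0 to 0 for IGF1 at both times.

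Counts over all genes that moved by over 1.5 times are given beside the main count. With array weights they were 9266 for WT E2 2 h (main 5731), 8595 for WT IGF1 2 h (5178), 3946 for WT IGF1 24 h (1291), 2444 for KO minus WT vehicle (879), 4626 for the KO change minus the WT change at E2 2 h (2412), and, for E2 minus IGF1 in WT, 3893 at 2 h (1679) and 5495 at 24 h (3037), with 6904 for WT IGF1 24 h minus 2 h (4375). With only the groups compared they were 3338 for WT IGF1 2 h, 136 for WT IGF1 24 h, 0 for KO IGF1 2 h (2150), 7 for KO E2 2 h (110), 211 for KO minus WT vehicle, 4046 for the difference of changes at E2 24 h (6672), and, for E2 minus IGF1 in KO, 0 at 2 h (916) and 3288 at 24 h (6468). Without the 2 arrays that stand apart they were 728 for WT IGF1 24 h, 235 for KO E2 2 h and 4061 for the difference of changes at E2 24 h, and with the adipocyte covariate 55 for KO E2 2 h and 1010 for KO IGF1 2 h. For the differences of changes with IGF1 every setting called 18 genes or fewer. Centring moved the median of all genes by over 0.1 in WT E2 2 h (to 0.02), WT E2 24 h (0.01) and WT IGF1 2 h (0.03), and in the difference of changes at E2 24 h (0.00128, against 0.19) and KO E2 minus IGF1 at 24 h (0.02, against 0.13), and moved no count of members by over 1.5 times. A member at the floor has only a bound, which applies to Hsd17b7.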
